A study of Homo sapiens with 16 samples.

Results

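The kallikrein locus on chromosome 19 holds KLK3 and KLK2, whose binding by GABPα and by the factor labelled ERG was taken from 10 ChIP-seq samples. The locus was defined by position, as all peaks that start between 56000000 and 56300000 on chromosome 19 of hg18, a window of 300 kb. The positions used for the gene starts were 56050000 for KLK3 and 56068500 for KLK2, which are approximate, so the distances are approximate too. Distances are negative upstream of a start and positive downstream of it, and both genes lie on the plus strand. In the window, 34 of the 155269 peaks called by MACS in the 10 samples were found, together with 21 of the 39138 high confidence intervals, which are those called by both MACS and SWEMBL. The 34 peaks fell into 13 separate regions once overlapping peaks were merged, numbered 1 to 13 along the chromosome. Of these regions, 11 held a peak in 2 or more samples and 7 held a high confidence interval in at least 1 sample.

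The samples came from VCaP, a prostate cancer (PC) cell line that carries the TMPRSS2-ERG fusion, and from Jurkat, a T-cell line. VCaP cells were kept in charcoal-stripped serum for 48 h and then given either R1881 (methyltrienolone, a synthetic androgen, at 1 nM) or ethanol as vehicle, and a t0 sample, whose timing the labels do not define, was also taken. Each of these 3 conditions had 1 ChIP sample for ERG and 1 for GABPα, whereas Jurkat cells, for which no treatment is labelled, had 2 replicates for each factor. The peaks of each sample were called against input DNA. The vehicle and R1881 samples of 1 factor shared an input, as did both Jurkat replicates of 1 factor, and each t0 sample had its own. For VCaP cells the labels name t0 and vehicle inputs and none with R1881.

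KLK3 encodes prostate-specific antigen (PSA), a secreted serine protease whose level in blood is used to follow PC, and KLK2 encodes a closely related protease. Both genes are known to be expressed in the prostate and induced by androgen, and KLK3 has a known enhancer a few kilobases upstream of its start. GABPα and ERG are ETS family transcription factors, which bind DNA motifs with a GGAA core. GABPα is found mostly at promoters in many cell types, and ERG is highly expressed in PC cells that carry the fusion. In the RefSeq gene order KLK3 and KLK2 are direct neighbours, with 0 genes between them, in a cluster of 15 protein-coding kallikrein genes that runs from KLK1 through KLK15, KLK3, KLK2 and KLK4 to KLK14.

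Some facts about the samples bear on every value below. The catalogue number that the labels give for the ERG antibody is not the one that the study's methods list for ERG, where it belongs to an antibody against another protein. Samples are therefore called ERG-labelled here, and which protein was precipitated was not tested. The number of MACS peaks in the genome ranged from 6963 to 23947 in the 6 VCaP samples and from 7288 to 22108 in the 4 Jurkat samples. The files give no read numbers, so sequencing depth is unknown and its part in any difference in peak number or score was not tested. Peak files hold no expression values, so the labelled cell types were not checked against marker genes. With 1 sample per VCaP condition there was no replicate error, and no difference between conditions was tested.

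The promoters of the 2 genes are shown because no peak was called over the gene starts (nearest peak edge 2.7 kb downstream of the KLK2 start) and because they resemble each other. The 250 bases upstream of each start, from RefSeq (GRCh38.p14, plus strand), were at chr19:50854665-50854914 for KLK3 and at chr19:50873189-50873438 for KLK2. Capitals mark GGAA, the ETS core, on either strand (GGAA on the minus strand reads TTCC).
KLK3: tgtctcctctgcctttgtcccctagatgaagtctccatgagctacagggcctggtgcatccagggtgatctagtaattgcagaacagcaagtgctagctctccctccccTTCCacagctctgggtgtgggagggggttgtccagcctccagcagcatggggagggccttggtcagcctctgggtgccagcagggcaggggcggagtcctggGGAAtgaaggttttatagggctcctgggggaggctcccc
KLK2: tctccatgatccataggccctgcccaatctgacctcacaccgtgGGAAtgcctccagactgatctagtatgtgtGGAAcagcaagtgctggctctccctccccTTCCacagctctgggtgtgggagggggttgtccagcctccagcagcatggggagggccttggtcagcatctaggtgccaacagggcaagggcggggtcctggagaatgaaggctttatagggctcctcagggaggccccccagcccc
The GGAA core occurred 2 times at KLK3 and 3 times at KLK2, and in 92.8% of 27305 RefSeq promoters of the same length, searched on both strands. Counted from the start, the cores began at positions −141 and −39 at KLK3 and at −206, −176 and −147 at KLK2. The longer form GGAAG, which contains GGAA, occurred once in each and in 65.1% of all promoters, and CCGGAAG, which contains both, was in neither of them and in 8.82% of all. The sequences were identical at 206 of 240 aligned bases (85.8%), with an unbroken identical run of 80 bases. The reads were 36 bases long, so a read that lies wholly inside that run matches both promoters and cannot be assigned to 1 of them. The authors removed reads of low alignment quality, and how far this affected peak calls at the promoters was not tested.

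No MACS peak covered either gene start in any of the 10 samples. The peaks lay upstream of KLK3, between the gene starts and downstream of the KLK2 start. ERG-labelled peaks were found in all of these intervals in VCaP cells, with 2 upstream of KLK3, 2 between the starts and 5 downstream of the KLK2 start with vehicle, and 2, 2 and 4 with R1881. The single t0 peak was downstream of the KLK2 start. GABPα peaks in VCaP cells were upstream of KLK3 (1 in each condition) and downstream of the KLK2 start (1 at t0, 2 with vehicle and 3 with R1881), with 0 between the starts.

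**Figure D1:**
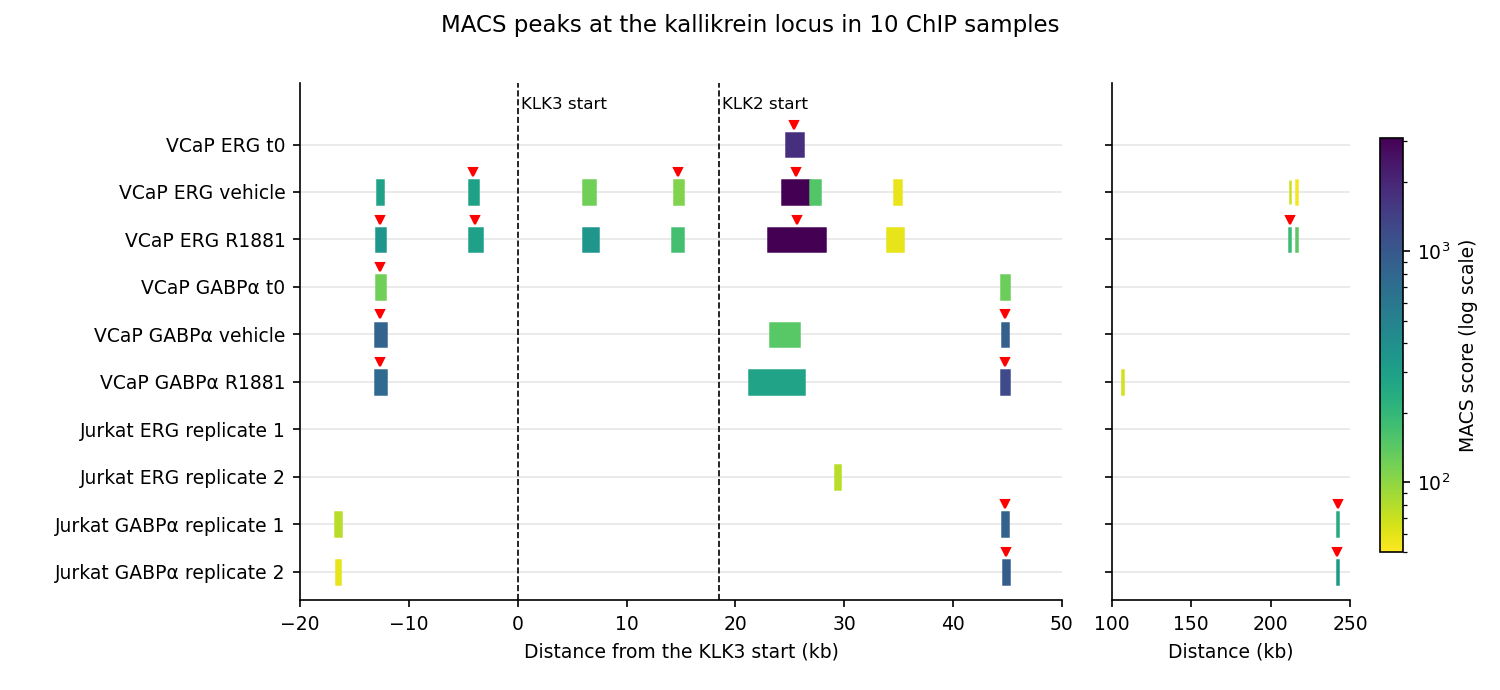
MACS peaks at the kallikrein locus in 10 ChIP samples, by distance from the KLK3 start in kb (2 panels, with the stretch between them left out), coloured by MACS score on a log scale, with red triangles over peaks that hold a high confidence interval and dashed lines at the gene starts. The ERG-labelled VCaP samples hold 1, 9 and 8 peaks and the darkest bars, while the Jurkat samples hold 0 to 3 peaks and 0 between the gene starts.

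The number of ERG-labelled peaks at the locus was 1 at t0, 9 with vehicle and 8 with R1881. The genome was cut into 10002 stretches of 300 kb, with the locus as 1 of them. Of these, 2.79% held at least 9 ERG-labelled peaks with vehicle and 5.5% held at least 8 with R1881. At least 1 peak, the count at t0, was in 39.1% of stretches. On chromosome 19, 2 of 212 stretches (0.943%), the locus among them, reached the locus count with vehicle and with R1881. At t0, 32.1% reached it. For GABPα the R1881 sample had 4 peaks, the vehicle sample 3 and the t0 sample 2, and 12.2%, 20.3% and 23.5% of all stretches held at least as many. On chromosome 19 these shares were 46.7%, 56.1% and 48.1%. Counts as high as that of the locus were thus rare on chromosome 19 for the ERG-labelled vehicle and R1881 samples, and common for the ERG-labelled t0 sample and for GABPα.

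The strongest site of the locus was region 6, at chr19:56071242-56078249. Its nearest edge was 2.7 kb and its middle 6.2 kb downstream of the KLK2 start. That edge is of the GABPα interval with R1881. The highest-scoring ERG-labelled peaks began 6.1 kb (t0), 5.8 kb (vehicle) and 4.5 kb (R1881) from the KLK2 start. A MACS score is 10 times the −log10 of a peak's p-value, and the lowest score deposited, 50, stands for a p-value of 1e-05. The ERG-labelled score of region 6 was 1744 at t0, 3100 with vehicle and 3100 with R1881. This peak had the highest score of the genome in the t0 sample (6963 peaks) and in the vehicle sample (19504 peaks). With R1881 it shared the highest score with 3 other peaks, making 4 of 23947. The value 3100 recurred in 694 peaks over the 10 samples, although higher scores occur, so no ratio from it is read.

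At t0 the second highest ERG-labelled score was 284, so the KLK2 peak scored 6.14 times as high. With vehicle the second score was 1751, and no ratio is given because the KLK2 peak was at the recurring value, as it was with R1881. Among the 20 highest-scoring peaks of each ERG-labelled VCaP sample, 2 regions were present in all 3 samples. One was the KLK2 region, and the other, on chromosome 1 at chr1:32740095-32740479, scored 284 at t0, 1751 with vehicle and 2852 with R1881.

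**Figure D2:**
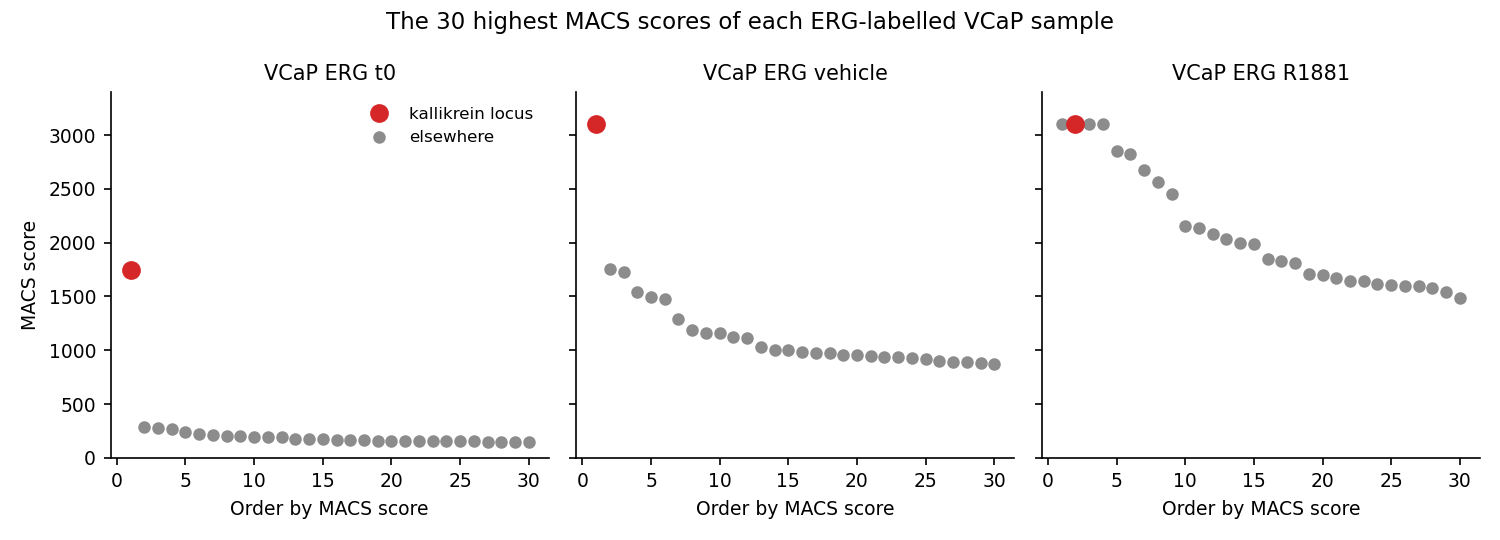
The 30 highest MACS scores of each ERG-labelled VCaP sample in order (horizontal axis, rank; vertical axis, MACS score), with the peak at the kallikrein locus in red and the others in grey. The red point is at 1744 against 284 for the next peak at t0, at 3100 against 1751 with vehicle, and level with 3 other peaks at 3100 with R1881.

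The peak downstream of the KLK2 start was also 1 of few that both callers found in the ERG-labelled t0 sample. Whether it lies inside or beyond the gene was not determined, since no hg18 annotation was used. There, 2 MACS peaks in the genome held a high confidence interval, which is 0.0287% of the 6963, and 1 of them was at KLK2, the only peak of the locus. With vehicle, 3 of the 9 locus peaks held a high confidence interval (3.81% of all peaks of that sample), and with R1881 4 of 8 did (8.54% of all). These were regions 3, 5 and 6 with vehicle and regions 2, 3, 6 and 11 with R1881.

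The MACS interval at KLK2 was 1615 bp long at t0 (chr19:56074615-56076229), 2543 bp with vehicle (chr19:56074258-56076800) and 5218 bp with R1881 (chr19:56073032-56078249). With vehicle a second, separate peak with a score of 153 followed at chr19:56076821-56077759, inside the span that was 1 peak with R1881. SWEMBL split the same stretch into narrower intervals, 1 of 384 bp at t0 (chr19:56075351-56075734), 3 with a summed length of 1245 bp with vehicle and 3 with a summed length of 1806 bp with R1881. The called width was therefore lowest at t0 and highest with R1881 with both callers. The number of peaks in the genome rose in the same order, from 6963 to 19504 and 23947, and the median length of all MACS peaks was 163, 352 and 485 bp. The part of library depth in the width at KLK2 was not tested.

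GABPα was called by MACS at the same site with vehicle and with R1881 but not at t0. Its score was 145 with vehicle (chr19:56073199-56075869) and 281 with R1881 (chr19:56071242-56076328). Both were long intervals for GABPα, 2671 and 5087 bp, against medians of 751 and 732 bp, and the R1881 interval was the 19th longest of 15013. SWEMBL called neither. Among the GABPα peaks the score of region 6 ranked 6959 of 14183 with vehicle, close to the median score of 140, and 5125 of 15013 with R1881, where the median was 127. Region 6 thus had the highest score in each ERG-labelled VCaP sample, shared with 3 other peaks with R1881, and a middle to upper rank in those GABPα samples.

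**Figure D3:**
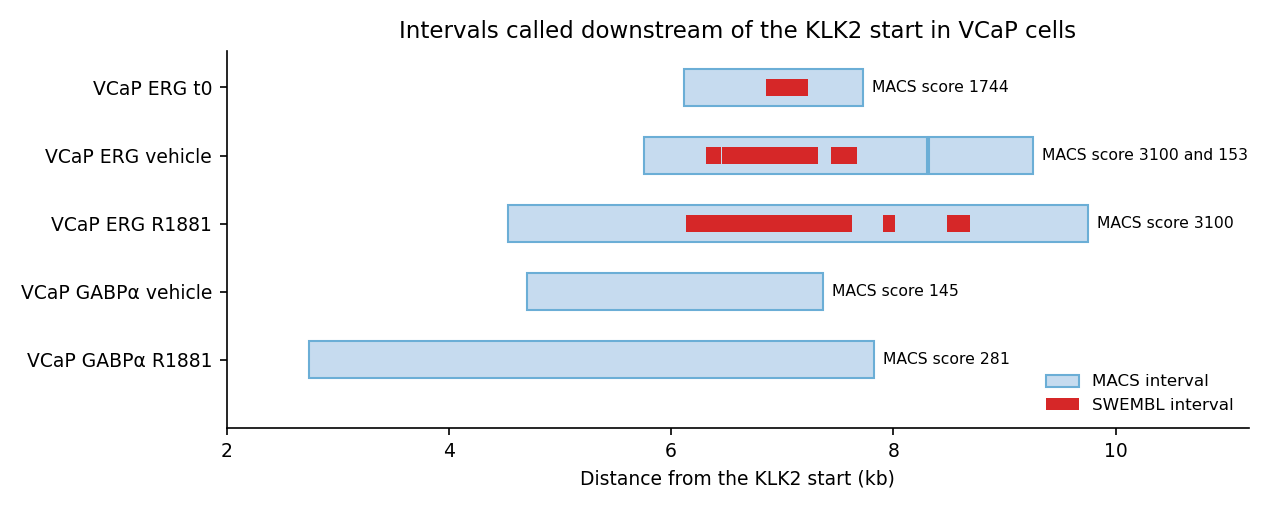
Intervals called downstream of the KLK2 start in 5 VCaP samples, by distance from the KLK2 start in kb, with MACS intervals in pale blue and SWEMBL intervals in red. The ERG-labelled MACS interval spans 1615 bp at t0 and 5218 bp with R1881, and the GABPα samples have MACS intervals with scores of 145 and 281 and no SWEMBL interval.

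Upstream of KLK3, region 2 was bound in both kinds of sample. It was at chr19:56036907-56037872, with its nearest edge at −12.1 kb from the KLK3 start. GABPα scored 123 at t0, 829 with vehicle and 761 with R1881, with a high confidence interval in all 3. The ERG-labelled samples had no peak there at t0 and scored 289 with vehicle and 355 with R1881, with a high confidence interval in the R1881 sample. The SWEMBL intervals with R1881, chr19:56037256-56037425 in the ERG-labelled sample and chr19:56037159-56037407 for GABPα, shared 152 bp, and their middles were 58 bp apart. No other ERG-labelled and GABPα SWEMBL intervals of the same condition overlapped in the window. The ERG-labelled R1881 interval also overlapped the GABPα SWEMBL intervals of the vehicle and t0 samples.

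Regions 2 and 6 were the regions of the locus with peaks of both kinds. With vehicle, 2 of 9 ERG-labelled peaks overlapped a GABPα peak, against 13.4% of all 19504 ERG-labelled peaks. With R1881, 2 of 8 did, against 16.3% of 23947. The t0 peak did not overlap a GABPα peak, where 2.64% of all ERG-labelled peaks did. The other 6 regions with an ERG-labelled VCaP peak and the other 4 with a GABPα peak had 1 kind only.

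Closer to KLK3, region 3 lay at chr19:56045498-56046703, with its middle at −3.9 kb from the start. It scored 289.9 with vehicle and 304 with R1881 in the ERG-labelled samples and was a high confidence peak in both. The deposited high confidence entry is a MACS interval with vehicle (chr19:56045498-56046341) and a SWEMBL interval with R1881 (chr19:56045844-56046040), so their widths cannot be compared. The SWEMBL interval with vehicle was chr19:56045846-56046039. The score of region 3 ranked 743 of 19504 and 1862 of 23947. No GABPα or Jurkat sample had a peak in this region.

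ERG-labelled peaks were also called on the far side of the KLK3 start and in front of KLK2. Region 4, at chr19:56055993-56057366, started 6.0 kb downstream of the KLK3 start and scored 122 with vehicle and 356 with R1881, with no high confidence interval. Region 5, at chr19:56064190-56065194, ended at −3.3 kb from the KLK2 start and scored 109 with vehicle, with a high confidence interval, and 171 with R1881, with none. Region 5 was thus called by both programs in the sample with the lower score. Region 8, at chr19:56083975-56085439 and 15.5 kb downstream of the KLK2 start, was near the lowest score, with 57.8 with vehicle and 58.3 with R1881.

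Further from the genes, ERG-labelled peaks were called in regions 11 (chr19:56261832-56262495) and 12 (chr19:56265811-56266674), 193.3 and 197.3 kb downstream of the KLK2 start. Region 11 scored 69.5 with vehicle and 185 with R1881, where it had a high confidence interval (chr19:56262099-56262240). Region 12 scored 52.9 and 142. No hg18 annotation was used here, so the genes at these regions are not named.

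**Figure D4:**
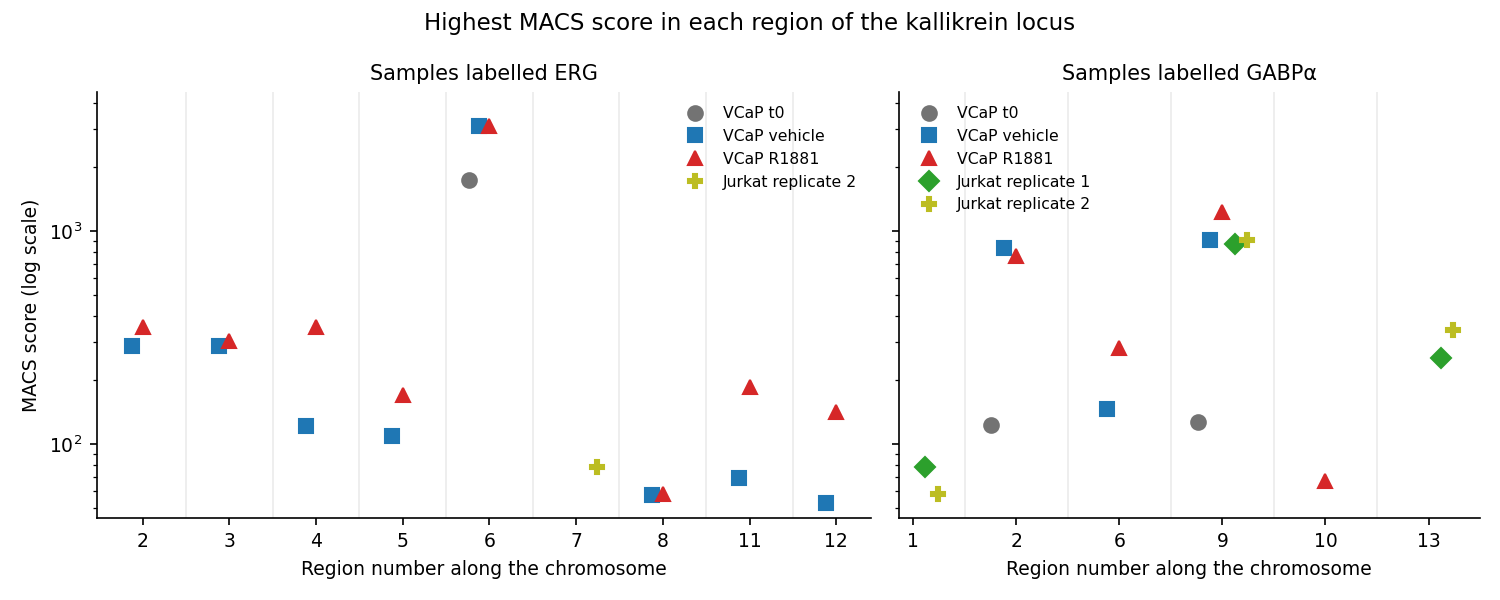
Highest MACS score (log scale) in each numbered region of the kallikrein locus, for ERG-labelled samples (left) and GABPα samples (right), with 1 symbol per sample. Region 6 reaches 3100 in the ERG-labelled samples, region 9 reaches 1235 in the GABPα samples, and the t0 scores of GABPα, at 123 and 126, lie below all vehicle and R1881 scores in regions 2 and 9.

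Region 9, at chr19:56094376-56095154 and 25.9 kb downstream of the KLK2 start, carried the highest GABPα scores of the locus. In VCaP cells it scored 126 at t0, 904 with vehicle and 1235 with R1881. In Jurkat cells it scored 867 and 911, a mean of 889 ± 31.2 (SD, n = 2). It was high confidence in these samples except at t0, and it was the only region of the 13 with both VCaP and Jurkat peaks. No ERG-labelled sample had a peak in it. Among all GABPα peaks of its sample it ranked 3203 of 9531 at t0, 2790 of 14183 with vehicle and 2233 of 15013 with R1881 (the top 14.9%). In Jurkat replicates 1 and 2 it ranked higher, 1161 of 21503 (the top 5.4%) and 1089 of 22108 (the top 4.93%).

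High confidence intervals were held by 1 of 2 GABPα peaks at t0 (27.9% of all), 2 of 3 with vehicle (39.6%), 2 of 4 with R1881 (34.8%), and by 2 of 3 in Jurkat replicate 1 (32.8%) and 2 of 3 in Jurkat replicate 2 (38.3%). With 2 to 4 peaks per sample, nothing is read from these counts. The remaining GABPα peak of VCaP cells, in region 10 with R1881, scored 66.8 and was called by MACS only.

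Scores with and without androgen were compared by dividing the score with R1881 by that with vehicle in regions with a peak in both samples. Among the ERG-labelled samples, the score was at least 2-fold higher with R1881 in 3 of the 8 regions of the locus, against 22.3% of the 7703 regions matched in the genome. These were region 4, between the gene starts (2.91-fold), and the distant regions 11 (2.67-fold) and 12 (2.68-fold). The score differed less in region 5 (1.56-fold), region 2 (1.23-fold), region 3 (1.05-fold) and region 8 (1.01-fold). The median over all matched regions was 1.16, with quartiles of 0.788 and 1.87, so regions 2, 3, 5 and 8 lay between the quartiles. Region 6, counted among the 8, was at 3100 in both samples and its ratio is not read. Regions 11 and 12 scored 69.5 and 52.9 with vehicle, where the lowest score possible was 50. With 8 regions, nothing is read from the count of 3.

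For GABPα, none of the 3 matched regions reached a 2-fold higher score with R1881, which 4.95% of 9871 regions in the genome did. Region 6 came nearest, with 1.93-fold, a ratio at or above that of 94.6% of the matched regions. The ratio was 1.37 in region 9 and 0.919 in region 2, the only ratio under 1 among the regions of the locus. The median over the genome was 1, with quartiles of 0.805 and 1.19. Between t0 and vehicle the GABPα scores differed more, 6.73-fold in region 2 and 7.15-fold in region 9, where the median over the genome was 3. The t0 and vehicle samples were called against different inputs, and the part of this in these ratios was not tested.

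**Figure D5:**
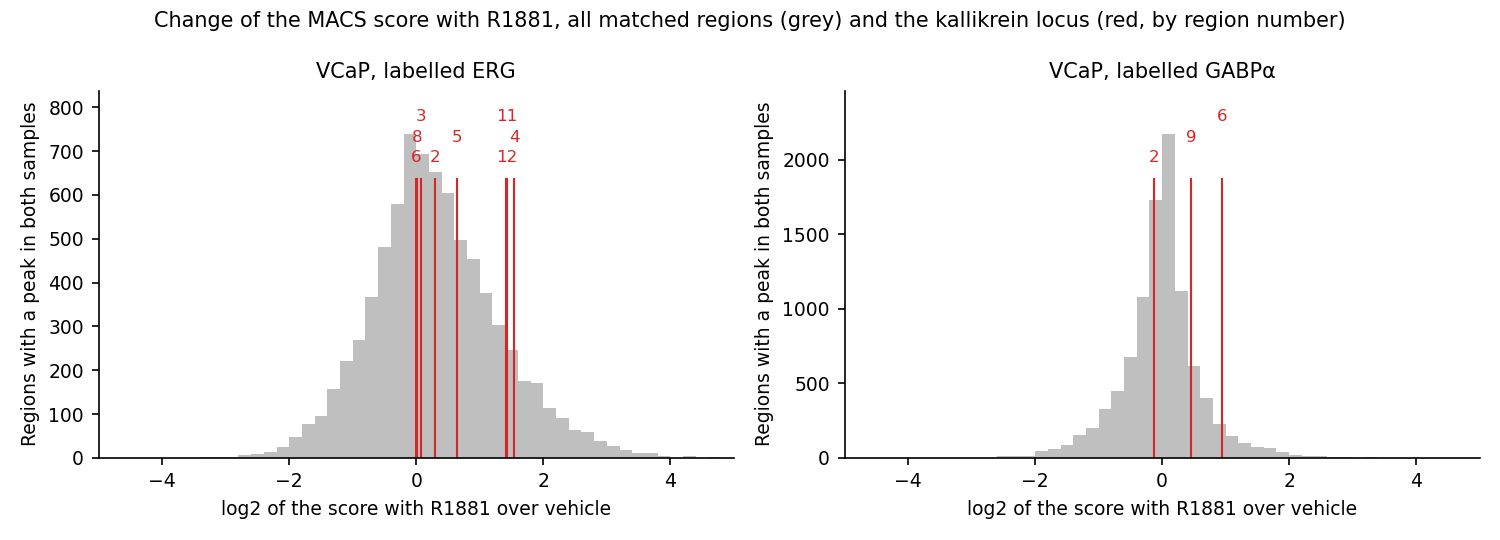
Distribution of the log2 ratio of MACS scores, R1881 over vehicle, over all regions with a peak in both VCaP samples (grey bars, number of regions) for ERG-labelled (left) and GABPα samples (right), with red lines for the numbered regions of the kallikrein locus. In the left panel regions 4, 11 and 12 lie to the right of most regions, with ratios of 2.91, 2.67 and 2.68, and in the right panel region 6 does, with 1.93.

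The peaks of the locus were called again from 1 VCaP treatment to the other. All 9 ERG-labelled vehicle peaks overlapped a peak of the R1881 sample, against 40.4% of vehicle peaks in the genome. All 8 R1881 peaks overlapped a vehicle peak, against 32.3%. Both vehicle peaks of region 6 overlapped the same R1881 peak. The ERG-labelled peaks of the locus were all longer than the median of their sample. The shortest was 443 bp with vehicle (median 352 bp) and 664 bp with R1881 (median 485 bp). Longer peaks overlap others more easily, and the part of length in these shares was not tested. For GABPα, 3 of 3 vehicle peaks were found with R1881 (69.9% in the genome) and 3 of 4 R1881 peaks were found with vehicle (66% in the genome). Region 6, which held the only ERG-labelled t0 peak, and regions 2 and 9, which held the GABPα t0 peaks, had peaks of the same factor in both other VCaP conditions.

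In the ERG-labelled Jurkat samples, replicate 1 had 0 of its 7288 peaks at the locus and replicate 2 had 1 of 15229, in region 7 at chr19:56079146-56079609, with a score of 78.25. That peak held no high confidence interval, whereas 10.2% of the peaks of that sample held one. It lay 10.6 kb downstream of the KLK2 start, outside region 6. The mean was 0.5 ± 0.707 peaks (SD, n = 2), and 54.9% of all stretches of 300 kb held at least 1 peak in replicate 2. None of the 8 ERG-labelled VCaP peaks with R1881 overlapped a Jurkat ERG-labelled peak, whereas 3.86% of all 23947 did, so an overlap of 0 was common in the genome too. No Jurkat sample had a peak in region 6, the site of the locus with the highest ERG-labelled score in VCaP cells.

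Jurkat GABPα samples had 3 peaks each at the locus, a mean of 3 ± 0 (SD, n = 2), the same number as the VCaP vehicle sample. At least 3 GABPα peaks were in 32.5% of all stretches in replicate 1 and in 33.5% in replicate 2. All 3 peaks of replicate 1 were called in replicate 2, against 72.7% of all peaks of replicate 1. They were in region 9, in region 1 at chr19:56033195-56033786, at −16.2 kb from the KLK3 start, and in region 13 at chr19:56291739-56292515, 223.2 kb downstream of the KLK2 start. Region 1 scored 77.8 and 58.5, with a mean of 68.2 ± 13.7 (SD, n = 2), and had no high confidence interval. Region 13 scored 253 and 345, with a mean of 299 ± 64.9 (SD, n = 2), and had a high confidence interval in both replicates. VCaP samples had no peak in regions 1 and 13. Comparing the cell lines, the peak in region 9 was the only 1 of the 4 R1881 GABPα peaks with a Jurkat counterpart, against 28.9% of all 15013. Region 2, upstream of KLK3, scored 761 to 829 for GABPα in VCaP cells with R1881 or vehicle and had no peak in either Jurkat replicate.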

How the data were processed

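VCaP and Jurkat ChIP DNA was sequenced as 36 bp reads. The authors aligned them to hg18 with BWA 0.5.5, kept reads with an alignment quality of at least 15, removed duplicates and called peaks in each sample with MACS and SWEMBL. The MACS version is not given in the sources used here. The deposited MACS score is 10 times the −log10 p-value, with 50 (p-value 1e-05) the lowest. The deposited high confidence sets list SWEMBL intervals that overlap a MACS peak in 7 samples, and in 3 samples (ERG-labelled VCaP at t0 and with vehicle, and Jurkat ERG replicate 1) mostly MACS intervals. The 6 inputs have no peak file among those used here.

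Everything else was computed with Python 3.11.15 (numpy 2.4.6, scipy 1.17.1, figures with matplotlib 3.10.9). Peaks were matched by an overlap of at least 1 bp, and the matching was tested on simulated intervals against bedtools 2.31.1. For ratios, the highest scores of the matched peaks in a region were divided. Groups were taken from the labels. No statistical test was run, because VCaP conditions had 1 sample each and 2 replicates against 2 are too few for an exact test to pass the usual threshold. Replicates of Jurkat are given as mean ± SD, and nothing in the labels says whether they were separate cultures.

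KLK2 and KLK3, the window and the lists were chosen with earlier results of these data known. Coordinates were given for every high-confidence region, every region with peaks in 2 or more samples and the highest-scoring peak of each sample. Alternatives were windows of 25 and 50 kb around the gene starts, peaks that overlap the window, a minimum score of 100, an overlap of 50% of the shorter peak, other peak sets, percentile ranks and single Jurkat replicates. No hg18 sequence or annotation was used, so peak sequences and gene features are not given. Promoters came from RefSeq (GRCh38.p14), and no coordinates were converted between builds.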

Additional observations from a re-analysis of the deposited data

Results flagged for a closer look

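In region 2, upstream of KLK3, the scores of the 2 factors differed in opposite directions between vehicle and R1881. The ERG-labelled score was 1.23-fold higher with R1881 (289 with vehicle and 355 with R1881), and the GABPα score was 0.919 of its vehicle value (829 and 761). The difference between the factors was not tested, since each value rests on 1 sample per condition. The ERG-labelled ratio was near the median of 1.16 over all matched regions. On the scale of percentile rank within the sample both directions turned, to −2.32 for the ERG-labelled score and 0.181 for GABPα.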

How the results depend on the processing

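Of 149 alternative values, 123 kept within the limits set for their result and 26 moved, among them 4 ratios under 2-fold that turned direction on the rank scale. The 3 ratios of at least 2-fold kept theirs. Some counts that kept within their limits still changed in order. ERG-labelled MACS peaks numbered 9 with vehicle and 8 with R1881. With a minimum score of 100 they numbered 6 and 7, and as merged regions 8 and 8. With peaks within 25 kb of a gene start, the MACS peaks numbered 1 for GABPα at t0, 2 for GABPα with R1881 and 1 in each Jurkat GABPα replicate, and the high confidence intervals 1 for GABPα with vehicle, 1 with R1881 and 0 in each Jurkat GABPα replicate, because regions 9, 10 and 13 lie 25.9, 88.0 and 223.2 kb from the KLK2 start. The highest GABPα scores were then 123.11 at t0, 828.61 with vehicle, 761.28 with R1881, and 77.84 and 58.5 in Jurkat cells. Within 50 kb, each Jurkat GABPα replicate had 1 high confidence interval. SWEMBL alone gave 5 intervals in the ERG-labelled vehicle sample in place of 3. High confidence peaks only gave a highest GABPα score of 123.11 at t0, and a minimum score of 100 left 0 peaks in Jurkat ERG replicate 2. The ERG-labelled peaks that overlap GABPα numbered 1 with high confidence peaks and 0 at t0, in place of 2. As a difference of percentile rank within the sample, R1881 minus vehicle, ERG-labelled region 2 was −2.32, region 3 −3.97 and region 8 −4.41, and GABPα region 2 was 0.181, so these 4 directions depended on the scale. Leaving out 1 Jurkat replicate gave an ERG-labelled peak number of 0 to 1 and moved no other value beyond its limit. No paired analysis was possible because no result came from a test and VCaP conditions had 1 sample each. The unknown read depth limits every score and peak number.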
